A study of Mus musculus with 30 samples.

Results

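The data described here compare adipocytes of female mice labelled Ctnnb1KO with those of female mice labelled Ctnnb1flfl. These are 12 of the 30 RNA libraries of the series, 6 of each label, and they were picked by their sample names in the deposited count table. Ctnnb1 encodes β-catenin. The mice are named as adipocyte knockouts (Ctnnb1AdKO) and Ctnnb1fl/fl controls, so that both groups carry the floxed gene. The sources used here do not give the driver of the deletion, the exons removed or the ages of the mice. Adipocytes are the cells that float after fat has been digested with collagenase. The labels name epididymal and posterior subcutaneous white fat for every library, female ones included, and do not say which depot a library came from or whether depots were pooled. Replicate numbers are given, but nothing states that each is a separate mouse, so p-values measure the spread between libraries. Of the other groups, the male adipocytes (6 control and 5 knockout libraries) are used below for the difference between sexes. Because the depot of a library is not stated, sex and depot cannot be told apart in that difference.

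β-catenin passes the canonical Wnt signal to the nucleus, where it works with TCF and LEF factors, and it also ties cadherins to the cytoskeleton. Wnt signalling is known for holding back the formation of fat cells, and mature fat cells still have its components. White fat cells store triglyceride. Some of them can take on a thermogenic program like that of brown fat, with many mitochondria, the coactivator PGC-1α, lipid droplet protein CIDEA and the uncoupling protein UCP1. A floating adipocyte preparation also holds RNA of macrophages and of other cells that cling to the fat cells.

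Total counts were 21070904 to 21738980 per library, so depth was close to even. Log CPM correlated at 0.963 to 0.991 between pairs of libraries of the same group (CPM, the count scaled to a common library size by TMM). The adipocyte markers were abundant in all 12 libraries and none of the 10 was called: Adipoq, which encodes adiponectin, had 4709 to 6780 CPM in controls and 4623 to 6849 CPM in knockouts. Ctnnb1 itself did not check the labels. It had 289, 319 and 347 CPM (lowest, median and highest) in controls and 294, 349 and 369 CPM in knockouts, and its log2 fold change was 0.11 (SE 0.07, edgeR adjusted p = 0.670). A count over a whole gene need not drop when only some exons are removed. Knockout below therefore means a library labelled so.

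Knockout libraries had more mRNA of Grb14, Cidea, Otop1, Ppargc1a, Itpr2 and Hsd11b1, and more transcripts of the mitochondrial genome. They had less mRNA of Colec12, Igfbp2 and a set of macrophage genes. The calls of Cidea, Otop1, Igfbp2 and the macrophage genes were each lost on removal of some single library. Igfbp2 had a control median of only 0.477 CPM. No macrophage gene was called with the 12 female libraries fitted alone. In all, 67 of 14227 genes tested were called at an adjusted p below 0.05, which is 0.471%. Of these, 46 were higher (0.323% of genes tested) and 21 lower (0.148%). At an unadjusted p below 0.05 there were 682 higher (4.79%) and 787 lower (5.53%), and the median log2 fold change over all genes was 0.0064. Fold changes were positive for 7323 of the genes tested. All 6 knockouts lay above all 6 controls in 34 of the 46 higher genes, and below in 8 of the 21 lower genes. Over all genes tested, these separations occurred in 0.492% and 0.302%. The called genes were picked from these same libraries, so their separation follows in part from the choice. Leaving out a single library reduced the calls by over 1.5 times in 5 cases: 33 genes were called with control 3 removed, 39 with control 4, 32 with knockout 1, 42 with knockout 2 and 40 with knockout 5. It was 26 (22 higher, 4 lower) with the 12 libraries fitted alone and 206 (100 higher, 106 lower) with DESeq2.

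**Figure D1:**
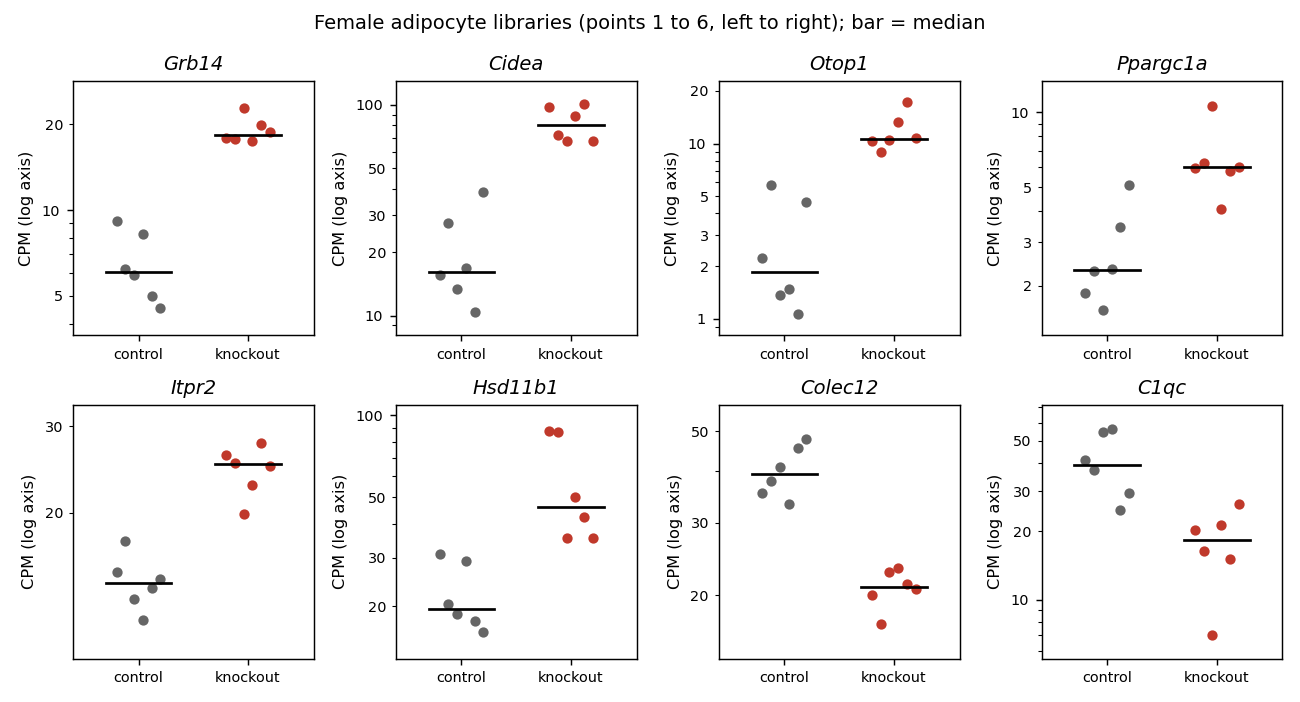
Levels of 8 genes in the 6 control (grey) and 6 knockout (red) female adipocyte libraries, as CPM on a log axis, with 1 point per library in order of replicate number and a bar at the median. Grb14 sits between 17.5 and 22.7 CPM in knockouts and at or below 9.15 CPM in controls, Colec12 shows the opposite order without overlap, and the C1qc groups meet at their edges.

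The gene with the smallest adjusted p was Grb14, an adaptor that binds the insulin receptor and dampens its signal. It had 4.54, 6.07 and 9.15 CPM (lowest, median and highest) in controls and 17.5, 18.3 and 22.7 CPM in knockouts. The groups did not overlap, and the knockouts spread little. The log2 fold change was 1.55 (SE 0.18, edgeR adjusted p = 0.000126). Grb14 was the 1 gene called of 25 tested in the insulin signalling list, beside 0.323% called higher of all genes. Of the 25 genes, 12 had positive fold changes (median -0.0014). The insulin receptor gene Insr had a log2 fold change of 0.08 (adjusted p = 0.917) and the glucose transporter gene Slc2a4 one of 0.23 (adjusted p = 0.665). In males Grb14 had a log2 fold change of 0.78 (adjusted p = 0.0795), and the difference between the sexes had an unadjusted p of 0.00537 (adjusted p = 0.407 in edgeR).

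Other sets of genes moved in the same preparations, in opposite directions, and the promoters of 3 called genes are printed because Grb14 led the list, Ppargc1a belongs to the set that was higher and Cd209d to the set that was lower. The sequences are the 250 bases before a gene start in RefSeq on GRCm38.p6, on the strand of the gene. All 3 genes lie on the minus strand, and the windows are chr2:65022767-65023016 for Grb14, chr5:51567726-51567975 for Ppargc1a and chr8:3878500-3878749 for Cd209d. Capitals mark a match to a searched motif on either strand.
Grb14: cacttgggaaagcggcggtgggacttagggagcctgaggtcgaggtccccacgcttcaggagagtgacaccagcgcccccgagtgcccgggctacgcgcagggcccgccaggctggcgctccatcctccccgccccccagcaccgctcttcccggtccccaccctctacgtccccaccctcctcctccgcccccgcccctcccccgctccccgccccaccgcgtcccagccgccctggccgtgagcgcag
Ppargc1a: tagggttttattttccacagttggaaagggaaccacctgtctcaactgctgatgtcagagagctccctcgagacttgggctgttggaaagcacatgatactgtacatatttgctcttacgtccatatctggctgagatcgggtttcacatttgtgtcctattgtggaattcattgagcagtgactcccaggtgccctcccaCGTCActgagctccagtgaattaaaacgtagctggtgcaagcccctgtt
Cd209d: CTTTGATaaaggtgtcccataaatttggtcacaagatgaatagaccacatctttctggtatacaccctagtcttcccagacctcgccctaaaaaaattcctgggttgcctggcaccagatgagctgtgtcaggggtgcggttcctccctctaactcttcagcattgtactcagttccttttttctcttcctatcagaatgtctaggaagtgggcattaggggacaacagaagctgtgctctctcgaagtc
The motifs were CTTTGAT and CTTTGAA (TCF/LEF), TGACGTCA (the cAMP response element) and its shorter form TGACG, TNAAGGTCA (estrogen-related receptors), AGGTCA (a single nuclear receptor site) and a direct repeat of AGGTCA with 1 base of any kind between the copies (PPAR). AGGTCA is contained in the 2 motifs named beside it, as TGACG is in TGACGTCA. Of 32817 such windows, 3.21% hold CTTTGAT, 4.46% CTTTGAA, 1.55% TGACGTCA, 17.7% TGACG, 1.14% TNAAGGTCA, 14.0% AGGTCA and 0.0335% the repeat. The Ppargc1a window holds TGACG on the opposite strand at bases -49 to -45, counted back from the start, and the Cd209d window holds CTTTGAT at bases -250 to -244. The Grb14 window holds none of these letters. The table had 49 windows for 37 of the 67 called genes, of which 1 held CTTTGAT, 8 TGACG and 9 AGGTCA, and none held the other 4 motifs. A match is a run of letters only.

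Genes of the thermogenic program were higher as a group. Of 30 listed genes 21 passed the filter on low counts, and 4 were called higher and none lower, beside 0.323% called higher of all genes. Positive values were found for 18 of the 21, and the median log2 fold change was 0.74. The list was written with earlier results known, and it holds Otop1 and Pank1, both among the 4 called, for that reason. Its direction, its count of called genes and its summed level are therefore not independent evidence. Zic1 and Bmp8b counted 0 in all 12 libraries. The summed level of the list ran from 277 to 402 CPM in controls and from 441 to 641 CPM in knockouts, without overlap.

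Cidea, whose protein coats lipid droplets and is abundant in brown fat, had 10.4, 16.2 and 38.5 CPM in controls and 67.0, 80.0 and 101 CPM in knockouts (lowest, median and highest). The lowest knockout was well above the highest control, which was control 6. The log2 fold change was 2.01 (SE 0.44, edgeR adjusted p = 0.0364). Otop1, a proton channel of brown fat, had 1.07, 1.85 and 5.83 CPM in controls and 8.97, 10.6 and 17.2 CPM in knockouts, again without overlap (log2 2.09, adjusted p = 0.0409). Ppargc1a encodes PGC-1α, a coactivator of genes for mitochondria. It had 1.6, 2.32 and 5.07 CPM in controls and 4.10, 6.01 and 10.6 CPM in knockouts, with the lowest knockout below the highest control (log2 1.22, SE 0.24, adjusted p = 0.0143). Pank1, which makes the coenzyme A precursor phosphopantothenate, rose by 0.92 on the log2 scale (adjusted p = 0.0472).

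Ucp1, the uncoupling protein, was scattered. It had 3.39, 8.65 and 75.2 CPM in controls and 28.6, 75.4 and 138 CPM in knockouts, and it was not called by edgeR (log2 1.90, SE 1.02, adjusted p = 0.541) or DESeq2 (0.691), but was called by limma-voom (0.0496). Control 6 alone was above the control maximum of the rest, 27.8 CPM. The transcription factor gene Ebf2, which marks thermogenic precursors, was just short of the threshold (log2 0.74, adjusted p = 0.0593), while Prdm16 had 0.36 (adjusted p = 0.519). The call of Cidea needed each of controls 1, 3, 4 and 5 and of knockouts 1, 2, 4 and 5, since removing any of them put its adjusted p between 0.0530 and 0.107. That of Otop1 needed the same 8 and also knockout 3 (0.0521 to 0.121 when removed). For Pank1 these were controls 1 to 4 and knockouts 1, 2 and 5 (0.0765 to 0.142 when removed). Ebf2 passed without control 6 or knockout 4, and its adjusted p with 1 library left out ranged from 0.0377 to 0.178. Ppargc1a was called whichever single library was removed, but not with the 12 female libraries fitted alone (adjusted p = 0.149), and neither was Pank1 (0.224). The count of 4 became 1 without control 1, 3 or 4 or knockout 1, 2 or 5, 2 without control 5 and 6 without control 6.

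**Figure D2:**
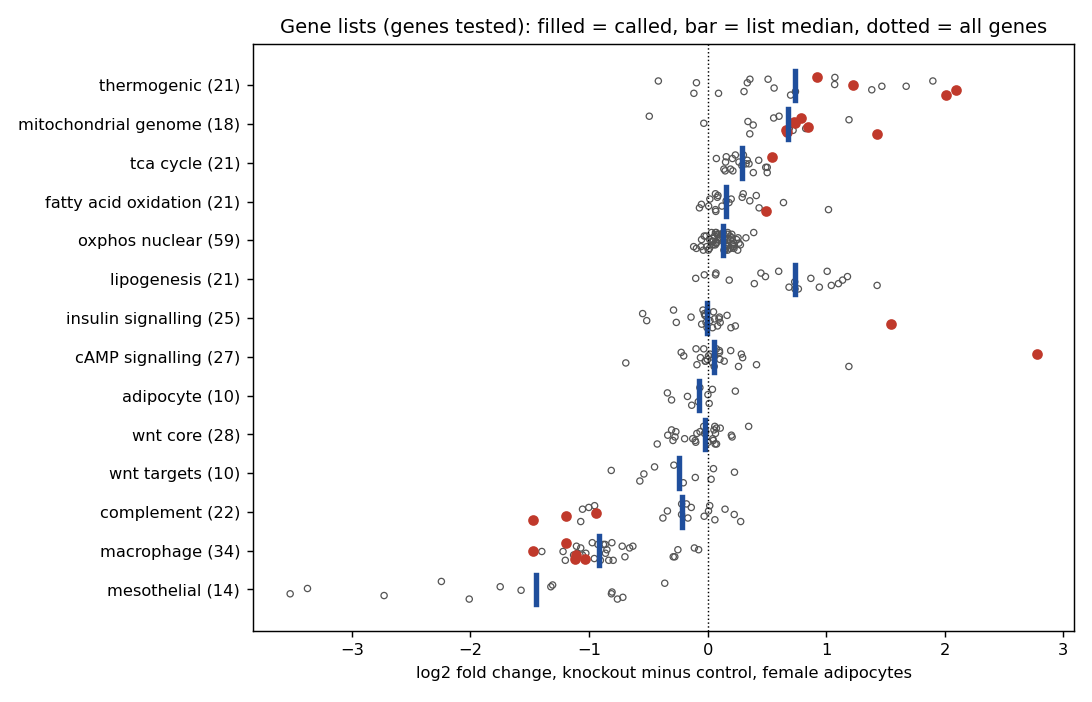
Log2 fold changes (knockout minus control, female adipocytes) of the genes tested in 14 lists, with called genes filled in red, the list median as a blue bar and the median over all genes as a dotted line. The thermogenic and mitochondrial genome lists lie to the right (medians 0.74 and 0.68), the macrophage and mesothelial lists to the left (-0.91 and -1.45), and the core Wnt and insulin lists around 0.

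Transcripts encoded by the mitochondrial DNA, which code for subunits of the respiratory chain and for its ribosomal and transfer RNAs, took up a larger share of the counts in knockouts. The shares of controls 1 to 6 were 5.20, 4.73, 4.28, 3.96, 3.49 and 4.58%. Those of knockouts 1 to 6 were 7.32, 6.69, 8.12, 7.12, 5.92 and 6.08%. The lowest knockout was above the highest control. The means were 4.37 ± 0.601% and 6.87 ± 0.824% (SD, n = 6 each), a difference of 2.501 percentage points with a two-sided exact permutation p of 0.00216, the smallest that 6 against 6 can give. In males the means were 1.83 ± 0.149% and 2.28 ± 0.561% (n = 6 and 5, exact permutation p = 0.0996), and the difference between the sexes in this share was not tested. The permutation test of the female share treated the libraries of a group as independent. Some pairs of libraries within a group were more alike than the others, as given below, so its p may be too small. A share of RNA does not tell fewer nuclear transcripts from more mitochondrial ones.

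**Figure D3:**
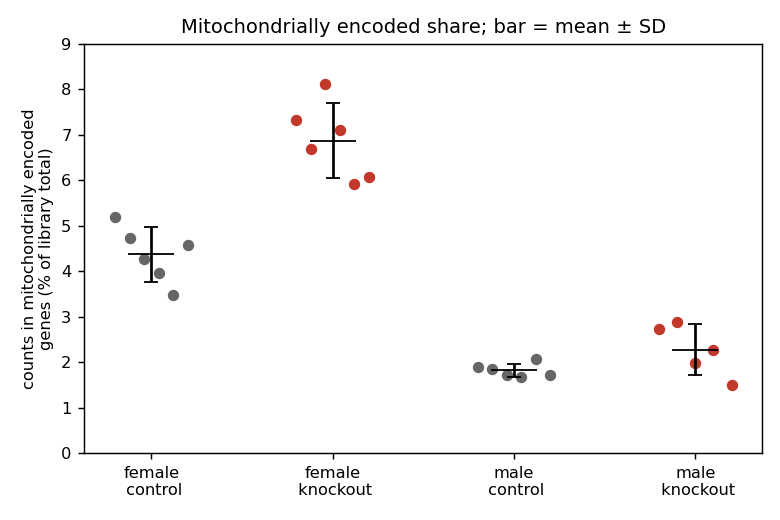
Share of each adipocyte library's counts in the 23 mitochondrially encoded genes, in percent, for female and male controls (grey) and knockouts (red), with a bar for the mean ± SD. The female knockouts lie between 5.92 and 8.12%, all above the female controls, and all male libraries lie at or below 2.89%.

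Of 18 mitochondrially encoded genes tested, 7 were called higher and none lower by edgeR, beside 0.323% called higher of all genes. DESeq2 called 10 and limma-voom 9, and 2, mt-Nd5 and mt-Co1, were called with the 12 female libraries fitted alone. In the fit of all adipocyte libraries 16 had values above 0, the median log2 fold change being 0.68. All 6 knockouts lay above all controls in 7 of the 18. mt-Nd5, a subunit of complex I, had 1859 to 3031 CPM in controls and 3590 to 5342 CPM in knockouts (log2 0.85, SE 0.14, adjusted p = 0.00382). mt-Co1, the catalytic subunit of cytochrome oxidase, had 16830 to 21820 CPM and 27920 to 38450 CPM (log2 0.73, adjusted p = 0.0155). mt-Cytb of complex III rose by 0.74 and mt-Nd1 by 0.66 on the log2 scale (adjusted p = 0.0154 and 0.0124, and 0.0513 and 0.102 with the female libraries alone). The other called genes were mt-Nd2, mt-Nd4 and mt-Atp6. mt-Atp6 was counted at only 2.16 to 17.2 CPM, and 3 predicted genes, Gm10925, Gm28439 and Gm10222, were also called higher. Reads shared with nuclear copies of mitochondrial DNA may be split by the authors' counting, so mt-Atp6 is uncertain. With knockout 1 removed mt-Co1 missed the threshold (adjusted p = 0.0531). mt-Nd2 missed it on removal of control 3, control 4 or knockout 1 (0.0603 to 0.0652), and mt-Atp6 on removal of control 3, control 4 or knockout 4 (0.0525 to 0.0801). mt-Nd4 missed it on removal of any of controls 2 to 5 or knockouts 1 to 5 (0.0649 to 0.135). Accordingly 4 of the 18 were called without control 3, control 4 or knockout 1.

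Nuclear genes of the citrate cycle, fatty acid oxidation and oxidative phosphorylation had smaller median fold changes than the mitochondrially encoded genes, and most were positive. In the citrate cycle list all 21 genes tested had positive fold changes (median 0.29), 11 had an unadjusted p below 0.05 and 1 was called, where DESeq2 called 3. The gene called by edgeR was Idh3a, the catalytic subunit of NAD-dependent isocitrate dehydrogenase, with 191, 212 and 271 CPM in controls and 218, 348 and 396 CPM in knockouts (log2 0.54, SE 0.12, adjusted p = 0.0426). Its groups overlapped. Of 21 tested genes of fatty acid oxidation 19 had positive fold changes (median 0.16), and 1 was called, Acaa2, the last enzyme of the β-oxidation cycle. DESeq2 called 4 of these genes and limma-voom 3. Over all genes tested edgeR called 0.323% higher, while DESeq2 called 100 genes higher and limma-voom 52. At an unadjusted p below 0.05 there were 4.79% higher and 5.53% lower. Acaa2 had 125, 146 and 152 CPM in controls and 169, 203 and 226 CPM in knockouts, without overlap (log2 0.49, SE 0.09, adjusted p = 0.00768). Of 74 listed nuclear genes of oxidative phosphorylation, 15 symbols, all of ATP synthase subunits, did not match the table and were not analysed here. Among the other 59 none was called by edgeR, limma-voom or DESeq2, 4 had an unadjusted p below 0.05 with higher levels, and 51 had positive fold changes (median 0.13). In the list of mitochondrial biogenesis 12 of 20 genes tested were positive and 8 negative (median 0.10), and the 1 called was Ppargc1a. Tfam, which packages and transcribes mitochondrial DNA, had a log2 fold change of -0.04 (adjusted p = 0.901). Mitochondrial import and dynamics had 17 positive of 24, and breakdown of branched-chain amino acids 12 of 23, with none called in either by edgeR or limma-voom, and 1 of the latter called lower by DESeq2. At an unadjusted p below 0.05 there were 5 higher genes in the former, and 3 higher and 3 lower in the latter. The call of Idh3a needed each of controls 3 to 6 and of knockouts 1, 2, 4 and 5 (adjusted p = 0.0681 to 0.123 when removed, and 0.212 with the female libraries fitted alone), so that no citrate cycle gene was called in those fits. Acaa2 was called whichever single library was removed.

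In de novo lipogenesis, 19 of 21 genes tested lay above 0 (median log2 fold change 0.73), and none was called by limma-voom or by edgeR without a replicate block. Of these 4 had an unadjusted p below 0.05 with higher levels, beside 4.79% of all genes. DESeq2 called 2 higher, and edgeR with the replicate number as a block called 3 higher. Over all genes DESeq2 called 100 higher and edgeR with the block 94. Scd1, the stearoyl-CoA desaturase, had 19110 to 37350 CPM in controls and 31560 to 81280 CPM in knockouts (log2 0.87, adjusted p = 0.0613), and it passed without control 5 or knockout 3, 4 or 6 (range 0.0353 to 0.204 with 1 library left out). Its adjusted p was 0.00209 with the replicate block and 0.00533 in DESeq2, and that of Acacb, an acetyl-CoA carboxylase, was 0.0413 and 0.0369. Fasn, the fatty acid synthase gene, had a log2 fold change of 0.94 with a large error (SE 0.55, adjusted p = 0.585). With the replicate block its edgeR adjusted p was 0.287, and each knockout lay above the control of the same number. Levels of these genes differed several-fold between libraries of the same group.

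Several genes of hormone handling and signalling were higher. Hsd11b1, the enzyme that turns inactive into active glucocorticoid inside cells, had 16.0, 19.5 and 31.1 CPM in controls and 35.4, 46.3 and 87.3 CPM in knockouts (log2 1.34, SE 0.22, edgeR adjusted p = 0.00382). The groups did not overlap, and knockouts 1 and 2 were the highest. Itpr2, a channel that releases calcium from internal stores, had 12.1, 14.3 and 17.5 CPM in controls and 19.8, 25.1 and 27.7 CPM in knockouts (log2 0.76, SE 0.11, adjusted p = 0.00105), also without overlap. Gnal, a G protein α subunit that activates adenylate cyclase, had 0.303, 0.524 and 0.848 CPM in controls and 1.64, 3.42 and 6.31 CPM in knockouts (log2 2.78, SE 0.47, adjusted p = 0.00611). It was the 1 gene called of 27 tested in cAMP signalling, beside 0.323% called higher of all genes. It was put into that list with earlier results known. The receptor tyrosine kinase ligand gene Alkal2 rose by 1.07 and the G protein gene Gnao1 by 0.98 on the log2 scale (adjusted p = 0.00731 and 0.00768). Ntrk3, the receptor of neurotrophin-3, rose by 1.53 and Bmper, a secreted regulator of bone morphogenetic proteins, by 1.22 (adjusted p = 0.00382 for each). The called genes named here were called whichever single library was removed. With the 12 female libraries fitted alone Hsd11b1 and Alkal2 were not called (adjusted p = 0.0862 and 0.0696), and under limma-voom Gnal was not (0.0682).

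Genes of the extracellular matrix and of amino acid and sugar metabolism were also among those higher. Col27a1, a fibrillar collagen, rose by 1.81 and the glycine cleavage enzyme gene Gldc by 1.49 on the log2 scale (adjusted p = 0.00382 for each). Comp, a matrix glycoprotein of cartilage and tendon, had 1.07 to 4.75 CPM in controls and 3.45 to 40.1 CPM in knockouts (log2 2.61, adjusted p = 0.0306). Its highest value was in knockout 3, its groups overlapped, and removal of control 1, 2, 3, 5 or 6 or of knockout 3 put its adjusted p between 0.0583 and 0.0801, and its log2 fold change was 1.91 without knockout 3. With the 12 female libraries alone Comp and Ldhb were not called (0.184 and 0.0762). The lactate dehydrogenase gene Ldhb rose by 0.57 (adjusted p = 0.00768), and Vat1l, related to a protein of synaptic vesicles, by 1.89 (adjusted p = 0.000425). Rpl29, a ribosomal protein gene with many near-identical copies, had 20.9 to 32.5 CPM in controls, 94.9 to 141 CPM in 5 knockouts and 27.0 CPM in knockout 2 (log2 1.80, adjusted p = 0.00846). Knockout 2 lay among the controls for this gene. In males Rpl29 had 87.0 to 127 CPM in knockouts, and 28.4, 30.1 and 100 CPM (lowest, median and highest) in controls. The male log2 fold change was 1.23 (edgeR adjusted p = 0.138). Rpl29 lies on chromosome 9, as does Ctnnb1. On that chromosome 7 of 747 genes tested were called (0.937%), beside 0.471% of all genes and 1.36% on chromosome 18. None of the 50 tested genes nearest Ctnnb1 in gene order was called. The part of linkage to Ctnnb1 in the Rpl29 result was not tested.

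Of the 21 lower genes, the one with the smallest adjusted p was Colec12, a scavenger receptor of the collectin family. It had 33.4, 39.3 and 47.8 CPM in controls and 17.0, 21.0 and 23.3 CPM in knockouts, without overlap (log2 -0.94, SE 0.15, edgeR adjusted p = 0.00382). It was also the 1 gene of the 67 that was called in males (log2 -0.85, adjusted p = 0.0296). Igfbp2, which binds insulin-like growth factors, had the largest fold change of the lower genes (log2 -4.80, SE 1.05, adjusted p = 0.0386). It had 0.0893, 0.477 and 6.83 CPM in controls and 0, 0.0474 and 0.152 CPM in knockouts, so that the groups overlapped at very low counts. Control 4 held the 6.83 CPM, and the log2 fold change without it was -3.5 (adjusted p = 0.144). The same library had the highest summed epithelial markers, 72.1 CPM, against 7.27 to 23.3 CPM in the other controls and 5.74 to 10.0 CPM in knockouts. Of 18 listed epithelial markers 4 passed the filter, and Krt17, Csn2 and Wap were at 0 in all 12 libraries. The part of epithelial RNA in the Igfbp2 result was not tested. Removal of control 6 or of any single knockout also ended the call (0.0613 to 0.0935).

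Macrophage genes were lower as a group. All 34 macrophage genes tested of 35 listed had negative fold changes, with a median log2 fold change of -0.91, and 5 were called lower (Fcna, C1qc, Cd209d, Clec10a and Pld4), beside 0.148% called lower of all genes. Another 23 had an unadjusted p below 0.05, DESeq2 called 18 and limma-voom 6. Over all genes DESeq2 called 106 lower and limma-voom 20, and 5.53% had an unadjusted p below 0.05 with lower levels. Most of the 5 genes called by edgeR entered the list with earlier results known. Its direction, its count of called genes and its summed level are therefore not independent evidence. The summed level of the list was 660 to 1401 CPM in controls, with controls 3 and 4 highest, and 183 to 808 CPM in knockouts, with knockout 3 lowest, and the groups overlapped. In stromal-vascular cells of male controls, the pelleted fraction of the same kind of digest, the median was 16920 CPM of the library total (n = 3), against 906 and 531 CPM in the female control and knockout adipocytes on that scale. In bulk libraries fewer macrophages and less RNA of these genes per macrophage cannot be told apart.

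**Figure D4:**
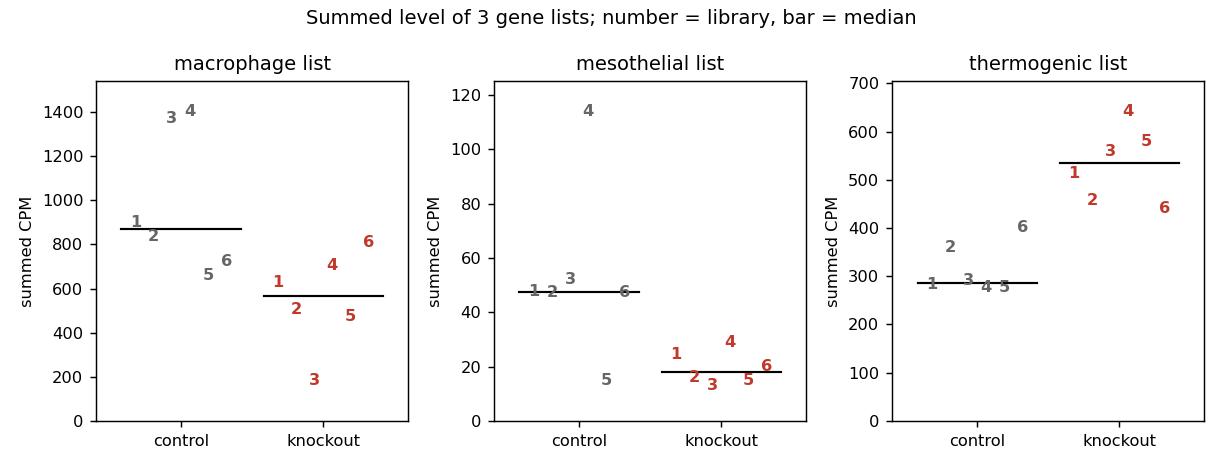
Summed CPM of the macrophage, mesothelial and thermogenic lists in each female adipocyte library, with the library number as the symbol and a bar at the median. The thermogenic sums do not overlap (277 to 402 against 441 to 641 CPM), while the macrophage and mesothelial sums do.

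C1qc, a chain of the complement component C1q made by tissue macrophages, had 24.8, 39.0 and 56.3 CPM in controls and 7.04, 18.3 and 26.4 CPM in knockouts (log2 -1.19, SE 0.26, adjusted p = 0.0376). The highest knockout was just above the lowest control. Clec10a, a lectin of resident macrophages and dendritic cells, had a median of 22.8 CPM in controls and 12.96 CPM in knockouts, with 17.2 CPM in the lowest control and 16.1 CPM in the highest knockout (log2 -1.11, adjusted p = 0.0472), without overlap. On the log2 scale Fcna, a ficolin, fell by 1.47, Cd209d, a lectin, by 1.12 and Pld4, an endolysosomal nuclease, by 1.03 (adjusted p = 0.0240, 0.0488 and 0.0458). The pan-macrophage genes Cd68 and Csf1r had adjusted p = 0.0945 and 0.0635, with log2 fold changes of -1.10 and -0.97. With the 12 female libraries fitted alone none of the 34 was called, and the adjusted p of the 5 genes was 0.142 to 0.214. Clec10a also missed the threshold with the replicate block (0.0545). The calls depended on single libraries as well: none of the 34 was called without control 3, control 4, knockout 1, knockout 2 or knockout 5, 1 without control 1, knockout 3 or knockout 4, 2 without control 2, and 13 without knockout 6. The adjusted p of C1qc was 0.0530 to 0.132 on removal of control 1, 3 or 4 or of any of knockouts 1 to 5. That of Fcna was 0.0530 to 0.0839 on removal of control 3 or 4 or of knockout 1, 2, 4 or 5. For Cd209d controls 1 to 4 and knockouts 1 to 5 mattered (0.0583 to 0.164 when removed), and for Clec10a controls 1 to 4 and knockouts 1, 2, 3, 5 and 6 (0.0528 to 0.174). For Pld4 these were controls 1, 2, 3, 4 and 6 and knockouts 1 to 5 (0.0557 to 0.144). Csf1r passed on removal of knockout 6 (0.00550, with 0.191 the highest on any removal). The complement list shares C1qc and Fcna with these genes and also holds Colec12. Those 3 of its 22 tested genes were called lower, beside 0.148% of all genes, and none higher (median -0.22).

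Markers of the mesothelium, the lining that covers visceral fat, had lower levels as well. All 14 tested of 15 listed had negative fold changes (median -1.45), and none was called by edgeR or limma-voom. An unadjusted p below 0.05 was found for 11, beside 5.53% of all genes with lower levels. DESeq2 called 5, beside 106 called lower over all genes. Krt7, a keratin, was near the threshold in edgeR (adjusted p = 0.0569). It passed without robust estimates (0.0492), with the replicate block (0.0318) and on removal of control 1, 2 or 5, and up to 2 of the 14 were called with 1 library removed. Their sum was 14.7 to 114 CPM in controls and 13.1 to 28.9 CPM in knockouts, with the highest value in control 4. In males the median was -1.41. Endothelial (median 0.09) and progenitor (median -0.04) markers had medians near that of all genes, and none of their 15 and 14 tested genes was called by edgeR or limma-voom, while DESeq2 and edgeR with the replicate block each called 1 progenitor gene lower. No endothelial gene had an unadjusted p below 0.05, and 1 progenitor gene did, which was lower. The part of these other cells in the macrophage, thermogenic and other results was not tested.

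Components and targets of Wnt signalling had no gene called by edgeR with all adipocyte libraries fitted together. Of 28 core components 13 had positive fold changes (median -0.02). An unadjusted p below 0.05 with lower levels was found for 6, beside 5.53% of all genes. DESeq2 called 1 lower, beside 106 over all genes, and limma-voom none. Ryk, a Wnt co-receptor, had 59.0, 64.3 and 74.7 CPM in controls and 45.9, 49.4 and 53.4 CPM in knockouts (log2 -0.42, SE 0.10, edgeR adjusted p = 0.0521). The groups did not overlap. The gene missed the threshold there, and passed it with the 12 female libraries alone (0.0455) and in DESeq2 (0.00902). Of 10 tested targets 3 had positive fold changes (median -0.25), 2 had an unadjusted p below 0.05 with lower levels, and neither DESeq2 nor limma-voom called any. Axin2, the feedback inhibitor that Wnt signalling induces in many tissues, had 6.45, 11.6 and 15.5 CPM in controls and 3.83, 5.52 and 8.83 CPM in knockouts (log2 -0.81, SE 0.24, adjusted p = 0.162), with overlap. Lef1, Lgr5 and Rnf43 stayed at or below 0.136 CPM and were not tested.

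The same contrast in male adipocytes called 10 genes (0.0703%). The control libraries of the sexes also differed: Hoxc10 had a mean of 17.6 CPM in female controls and 0.577 CPM in male controls. The part of depot in the differences between the sexes was not tested. Of the 67 genes called in females 58 had the same sign in males. Median log2 fold changes of the higher genes were 1.13 in females and 0.32 in males, and those of the lower genes -0.92 and -0.33. The genes were picked by their female values, so smaller male values follow in part from the choice. The difference between the sexes was called for 2 of 14227 genes (0.0141%) and for none of the 67 by edgeR or limma-voom. Of the 67, 44 had an unadjusted p below 0.05 for the difference, beside 8.87% of all genes, and DESeq2 called 5 (Itpr2, Vat1l, Pfkm, Gnal and Acaa2). The difference contains the female effect by which the 67 were chosen, so these counts too follow in part from the choice. Cidea was flat in males (log2 0.05; unadjusted p of the difference 0.00532, adjusted p = 0.407). Otop1 had a male log2 fold change of 0.87 with an unadjusted p of the difference of 0.126. The count of 2 became 0 without control 5 or 6, and 1 without control 3 or 4 or knockout 1, 3, 4 or 6.

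**Figure D5:**
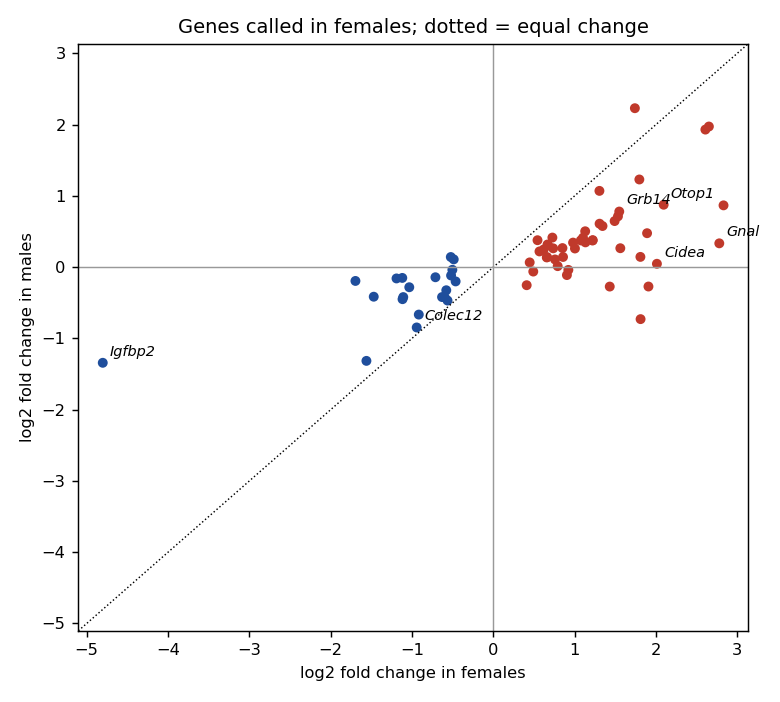
Log2 fold changes (knockout minus control) of the 67 genes called in female adipocytes, in females on the x axis and males on the y axis, red for higher and blue for lower genes, with a dotted line of equal change. Of the 67 points 58 lie in the quadrants of equal sign, and most lie closer to 0 on the male axis.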

How the data were processed

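Strand-specific mRNA libraries of collagenase-released, floating adipocytes were sequenced. The authors deposited raw read counts per gene and log2 values (regularised by DESeq2, per the file headers), which were used here only to check signs: all 67 called genes had the same sign there. The submitters' processing notes name FastQC 0.12.1, STAR 2.7.11a, DESeq2 and build mm39. Which program counted the reads, with what annotation and strand option, is not given here. Of 35120 genes 33501 matched a symbol, and 0 per-sample columns were left unused.

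The main test on counts was edgeR's quasi-likelihood F-test (edgeR 4.0.16, R 4.3.3; TMM scaling, filterByExpr with a minimum count of 10, robust estimates). All 23 adipocyte libraries were fitted in 4 groups of sex and label, with Benjamini-Hochberg adjustment over 14227 genes. Levels are CPM scaled by TMM. CPM has no correction for gene length. The mitochondrial share was compared by an exact permutation test over 924 splits. No 2 libraries of a group were as alike as counting noise (lowest chi-square per degree of freedom 16.1). Checked on simulated counts for 14044 genes of this comparison, the procedure called 85 of 100 genes changed by log2 1 and 96 of 100 changed by log2 2, with 3 false calls. Whether these rates of calls and false calls hold for the measured libraries was not tested. Alternatives were DESeq2 1.42.0, limma-voom (limma 3.58.1), other scalings and filters, females alone, a replicate block and each library left out.

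The members, lists and rules were chosen with earlier results of these data known. Named genes are Ctnnb1, the 12 called genes of largest change each way with a mean of at least 1 CPM in 1 group, the 8 of smallest adjusted p and, from each of 39 lists, up to 4 called members or else the 2 of smallest p, without predicted genes. Members of the thermogenic, mitochondrial genome, macrophage, complement, insulin, cAMP and Wnt target lists could be named freely. Adipoq, Alkal2, Gnao1, Ldhb, Pfkm, Glyctk, Vstm2a, Gpr34, Fasn, Tfam, Serpina3k, Akirin2 and Hoxc10 were chosen after their values were seen. So were the predicted genes beside mt-Atp6 and genes that flank Gnal and Cidea.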

Additional observations from a re-analysis of the deposited data

Results flagged for a closer look

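In 8 of 142 groups of 6 libraries, the highest or lowest library stood farther from its neighbour than Dixon's 95% limit allows, where chance flags about 1 in 20 groups. Dlgap1, a synaptic scaffold gene that was called higher, had 0.364 CPM in knockout 4 and 1.36 to 1.87 CPM in the other knockouts. Igfbp2 had 6.83 CPM in control 4 and 0.0893 to 2.42 CPM in the other controls. Ppargc1a had 10.6 CPM in knockout 3 and 4.10 to 6.26 CPM in the others. Gpr34, a receptor of lysophosphatidylserine, had 0.565 CPM in knockout 6 and 0.137 to 0.254 CPM in the others. Gnao1 had 10.6 CPM in control 2 and 6.04 to 7.46 CPM in the others. Glyctk, glycerate kinase, had 6.4 CPM in knockout 3 and 4.11 to 4.87 CPM in the others. Vstm2a, a secreted protein gene, had 4.37 CPM in knockout 1 and 2.09 to 2.86 CPM in the others. Ucp1 had 75.2 CPM in control 6 and 3.39 to 27.8 CPM in the others.

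By edgeR's test of the difference, the genotype effect differed between the female and male libraries for 2 genes. Sex and depot cannot be told apart in that test. The log2 effect on the serpin gene Serpina3k was 2.01 higher in females than in males (adjusted p = 0.0213), with 0.47 in females and -1.53 in males. That on Akirin2, a nuclear factor of innate immunity, was -0.57 (adjusted p = 0.0299), with -0.24 in females and 0.33 in males. Serpina3k has near-identical neighbours among which reads may be split.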

How the results depend on the processing

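The 67 called genes became 26 with the 12 female libraries alone (23 shared), 206 with DESeq2 (67 shared) and 32 to 89 with 1 library left out. Other scalings and filters, limma-voom and the fit without robust estimates gave 47 to 72. The difference between the sexes was called for 23 genes by DESeq2, 1 with no filter on low counts and 0 to 3 with 1 library left out. The excess in the mitochondrial share was 2.25 to 2.69 percentage points with 1 library left out. Of 58 called genes with established names, 14 kept their call under all 21 alternatives and 24 with any 1 library left out. Over 125 genes and all alternatives there were 301 lost calls, 61 gained calls and 0 reversals in 2616 comparisons.

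With the replicate number as a block, 142 genes were called (94 higher, 48 lower, 66 shared with the 67), 1 gene for the difference between the sexes, and sign flips over 6 pairs gave an exact p of 0.0312 for the mitochondrial share. Same-numbered libraries deviated together in 5 of 6 pairs (correlation -0.06 to 0.538). Of 6 knockouts 4, and of 6 controls 2, correlated best with their own number. The labels do not say whether the numbers pair the libraries, and the main fit did not pair them. Chi-square per degree of freedom was 16.1, 29.4 and 32.4 between controls 1 and 2, 3 and 4, and 5 and 6. Between the other controls it was 63.5 to 114. It was 27.3 between knockouts 1 and 2, 35.9 between knockouts 5 and 6, and 48.9 to 172 between the others. The main fit, the permutation test of the mitochondrial share and the fits with 1 library left out did not take this likeness into account. Their p-values may therefore be too small. Genes under about 1 CPM have the fewest reads, and changes there are the least precise.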

Other observations

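Interferon-stimulated genes and stress genes had opposite medians. Of 30 interferon genes tested 26 had positive fold changes (median log2 0.35). An unadjusted p below 0.05 with higher levels was found for 9, beside 4.79% of all genes. None was called by edgeR or limma-voom, DESeq2 called 2 higher and edgeR with the replicate block 1 higher. Over all genes DESeq2 called 100 higher and 106 lower, and edgeR with the block 94 and 48. Of 23 stress response genes 20 had negative fold changes (median -0.26). An unadjusted p below 0.05 with lower levels was found for 5, beside 5.53% of all genes. None was called by edgeR or limma-voom, and DESeq2 and edgeR with the replicate block each called 1 lower. Cholesterol synthesis had 20 of 21 positive fold changes (median 0.47), 7 with an unadjusted p below 0.05. None was called by edgeR, DESeq2 or limma-voom without the replicate number as a block, and edgeR with it called 2, Idi1 and Hsd17b7 (adjusted p = 0.00840 and 0.0310).

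Gnal and Cidea lie close together in gene order on chromosome 18, and both were called higher. Of the genes between them Chmp1b had a log2 fold change of 0.08, Mppe1 0.62 (adjusted p = 0.109) and Impa2 0.74 (adjusted p = 0.200).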
